A study of Mus musculus with 6 samples.

Results

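The oxidation of fatty acids was examined step by step in hematopoietic stem cells (HSCs) that lacked the ribosomal protein Rpl22. The genes were 40 symbols, chosen by name for the step and the organelle in which their products act, among 34573 genes counted in the same libraries. They fell into 8 steps, with 5 genes for activation of the fatty acid, 6 for transfer to and from carnitine, 4 acyl-CoA dehydrogenases, 7 mitochondrial genes for hydration through thiolysis, 4 for unsaturated chains, 3 for electron transfer, 8 peroxisomal genes and 3 regulators. By main site of their products, 19 were mitochondrial, 10 peroxisomal, 2 shared by both organelles, 5 spread over several membranes or compartments, 1 cytosolic, 1 of the endoplasmic reticulum and 2 nuclear. RNA was sequenced from HSCs of adult mice, backcrossed to C57BL/6, that carried a germline deletion of *Rpl22* (*Rpl22*-/-, labelled Rpl22 KO) or were wild type (*Rpl22*+/+, labelled Rpl22 WT), in 3 libraries of each genotype and without treatment. The HSCs were sorted from bone marrow as lineage-negative CD48-CD150+ cells after depletion of cells bearing Gr-1, CD11b, B220, Ter119 or CD3, and the study's definition of these HSCs adds Sca-1 and c-Kit. The study asked why HSC function changes when *Rpl22* is lost, and the comparison described here is the level of the fatty acid oxidation genes between the genotypes. As the deletion was in every cell of the mouse, a change in HSCs cannot be told apart from one brought about by other cells.

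Fatty acids enter oxidation as CoA esters, made by acyl-CoA synthetases on the outer mitochondrial membrane and other membranes. Long chains cross into the mitochondrion as carnitine esters, a transfer that begins with carnitine palmitoyltransferase 1 and that malonyl-CoA blocks. Inside, each round removes an acetyl unit through a dehydrogenase, a hydratase, a second dehydrogenase and a thiolase, and the first of these hands its electrons to the electron transfer flavoprotein. Very long and branched chains are shortened first in peroxisomes, where the opening step is an oxidase and not a dehydrogenase. The PPAR nuclear receptors activate many of these genes, and PPAR delta with fatty acid oxidation is known for its part in the maintenance of HSCs.

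Of the 40 genes, 4 differed between the genotypes at an adjusted p below 0.05 in the quasi-likelihood test of edgeR, adjusted over all genes tested by the Benjamini-Hochberg method (called, below), and each was higher in *Rpl22*-/- HSCs. They were *Scp2*, *Cpt1c*, *Eci2* and *Acadl*, which belong to 4 different steps. The windows around their transcription start sites are shown here because these are the genes that passed the test and because PPARs, like other nuclear receptors, recognize the core searched for. Each window is 300 bases of the GRCm38.p6 assembly from RefSeq, from 250 bases before the start to 50 after it, printed 5′ to 3′ on the strand of the gene, and all 4 genes lie on the minus strand. Capitals mark the nuclear receptor core AGGTCA or its reverse complement TGACCT. The windows are chr7:44974802-44975101 for *Cpt1c*, chr4:108118498-108118797 for *Scp2*, chr13:34994095-34994394 for *Eci2* and chr1:66863260-66863559 for *Acadl*. The *Scp2* and *Eci2* starts of RefSeq lie inside the span of the gene in the GENCODE annotation, which has further starts upstream.
Cpt1c: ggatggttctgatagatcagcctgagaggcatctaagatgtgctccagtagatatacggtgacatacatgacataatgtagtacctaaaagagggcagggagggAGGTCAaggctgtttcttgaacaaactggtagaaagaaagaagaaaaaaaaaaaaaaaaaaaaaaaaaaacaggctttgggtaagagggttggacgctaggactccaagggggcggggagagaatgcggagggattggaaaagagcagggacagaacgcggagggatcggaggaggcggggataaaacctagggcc
Scp2: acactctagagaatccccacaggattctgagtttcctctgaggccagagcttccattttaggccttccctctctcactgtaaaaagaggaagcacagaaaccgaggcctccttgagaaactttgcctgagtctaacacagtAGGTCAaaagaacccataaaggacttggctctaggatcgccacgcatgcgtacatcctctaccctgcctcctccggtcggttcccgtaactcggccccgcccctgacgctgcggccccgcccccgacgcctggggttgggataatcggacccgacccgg
Eci2: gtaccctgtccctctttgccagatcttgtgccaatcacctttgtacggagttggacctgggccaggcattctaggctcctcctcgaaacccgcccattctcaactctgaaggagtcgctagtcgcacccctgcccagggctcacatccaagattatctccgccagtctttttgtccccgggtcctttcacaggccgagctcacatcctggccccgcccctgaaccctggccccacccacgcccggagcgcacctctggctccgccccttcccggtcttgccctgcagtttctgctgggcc
Acadl: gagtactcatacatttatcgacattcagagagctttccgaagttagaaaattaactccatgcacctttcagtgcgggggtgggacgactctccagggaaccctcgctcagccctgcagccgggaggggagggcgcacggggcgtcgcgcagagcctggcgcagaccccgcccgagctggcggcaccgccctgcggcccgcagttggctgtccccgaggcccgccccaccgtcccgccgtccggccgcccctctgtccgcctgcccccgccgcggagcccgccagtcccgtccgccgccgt

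The *Cpt1c* window held 1 such core, beginning 146 bases before the start, and the *Scp2* window held 1, beginning 109 bases before it. Neither the *Eci2* nor the *Acadl* window held these letters. GC content was 47.3% in the *Cpt1c* window, 57.3% in that of *Scp2*, 62.3% in that of *Eci2* and 70.3% in that of *Acadl*. RefSeq windows were at hand for 34 of the 40 genes. These 34 genes had 37 windows, and their shares below are by gene, while the shares of all windows are by window. Of these 34, 6 (17.6%) had the core on either strand, namely *Acadm*, *Acadvl*, *Cpt1a*, *Cpt1c*, *Echs1* and *Scp2*, while 16.3% of all 32851 windows had it. The exact direct repeat of cores with 1 base between them, AGGTCANAGGTCA, occurred in 13 of all windows and in 0 of the windows of these genes. GCGCATGC, the core recognized by the transcription factor NRF1, lay in the windows of *Acadm*, *Etfa*, *Etfdh* and *Ppara*, 11.8% of the 34 genes, and in 2.71% of all windows. These matches are a description of letters in a short window and not of binding.

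The libraries held from 9321123 reads on genes, in *Rpl22*+/+ replicate 3, to 13385850, and the first principal component, with 42.0% of the variance, separated the genotypes. *Rpl22* itself fell from 538 ± 20.7 CPM (CPM, counts scaled to a common library size by edgeR's TMM method; SD, n = 3) in *Rpl22*+/+ to 40.1 ± 4.59 CPM (SD, n = 3) in *Rpl22*-/- libraries, a log2 change (log2 of the *Rpl22*-/- over the *Rpl22*+/+ level) of −3.75 (SE, standard error, 0.105, adjusted p = 2.97e-12). Among 12 HSC markers, all were detected in every library, *Gata2* was called higher and *Fgd5* lower, and their summed level ran from 3381 to 3675 CPM in *Rpl22*-/- and from 3456 to 3492 CPM in *Rpl22*+/+ libraries. Of 7 megakaryocyte genes, 5 were called higher in *Rpl22*-/- HSCs, and their sum ran from 1004 to 1266 CPM against 723 to 943 CPM. The sum of 8 neutrophil genes was 33.0 to 139 CPM in *Rpl22*-/- and 9.55 to 29.7 CPM in *Rpl22*+/+ libraries, with the highest value in *Rpl22*-/- replicate 2 and 1 gene called. *Cd48*, the gated-out marker, stood at 4.89 to 7.30 CPM in all libraries, *Ms4a1* and *Cd3e* had no read in any library, and the T cell, monocyte and macrophage, erythroid, and adipocyte and stroma sums overlapped between the genotypes, at no more than 44.9 CPM in any library. The B cell sum, nearly all of it *Cd79b*, was 24.6 to 28.2 CPM against 21.2 to 23.4 CPM. Of the erythroid genes, 1 (*Car1*) was called lower. The part of these lineage genes in the results below was not tested. In bulk RNA of this kind, a smaller share of cells with a transcript cannot be told apart from less of the transcript per cell. Nothing in the labels says that the 3 libraries of a genotype came from separate mice, so the p-values measure the spread between these libraries, which may be technical.

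The 4 genes called higher were 10.3% of the 39 genes tested, whereas 3.28% of all 14004 genes tested were called higher in *Rpl22*-/- HSCs. None of the 39 was called lower by edgeR, DESeq2 or limma-voom, against 2.29% of all genes by edgeR. DESeq2 called the same 4 genes and *Etfb*, 12.8% of the 39, where it called 7.54% of all genes in either direction. With limma-voom the same 4 were called, 10.3% of the 39, against 5.30% of all genes in either direction. At an unadjusted p below 0.05, 13 of the 39 genes (33.3%) differed, 10 higher and 3 lower, against 22.3% of all genes. In 11 genes (28.2%) every *Rpl22*-/- library lay above every *Rpl22*+/+ library, and in 6 (15.4%) every *Rpl22*-/- library lay below, where the shares among all genes were 13.3% and 13.6%. The median log2 change of the 39 was 0.090, with 27 above and 12 below 0, and that of all genes was −0.0068. Scaled by library size alone, 22 of the 39 lay above 0 and their median was 0.046, while that of all genes was −0.051. The same 4 genes were called under this scaling, and 43.4% of all genes called pointed up in place of 58.8%. Only 1 gene, *Cpt1c*, differed by 1.5-fold or more. The remaining gene, *Ppara*, had too few reads for the test. As the genes were gathered with earlier results of these libraries known, the counts are not independent evidence of a direction.

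**Figure D1:**
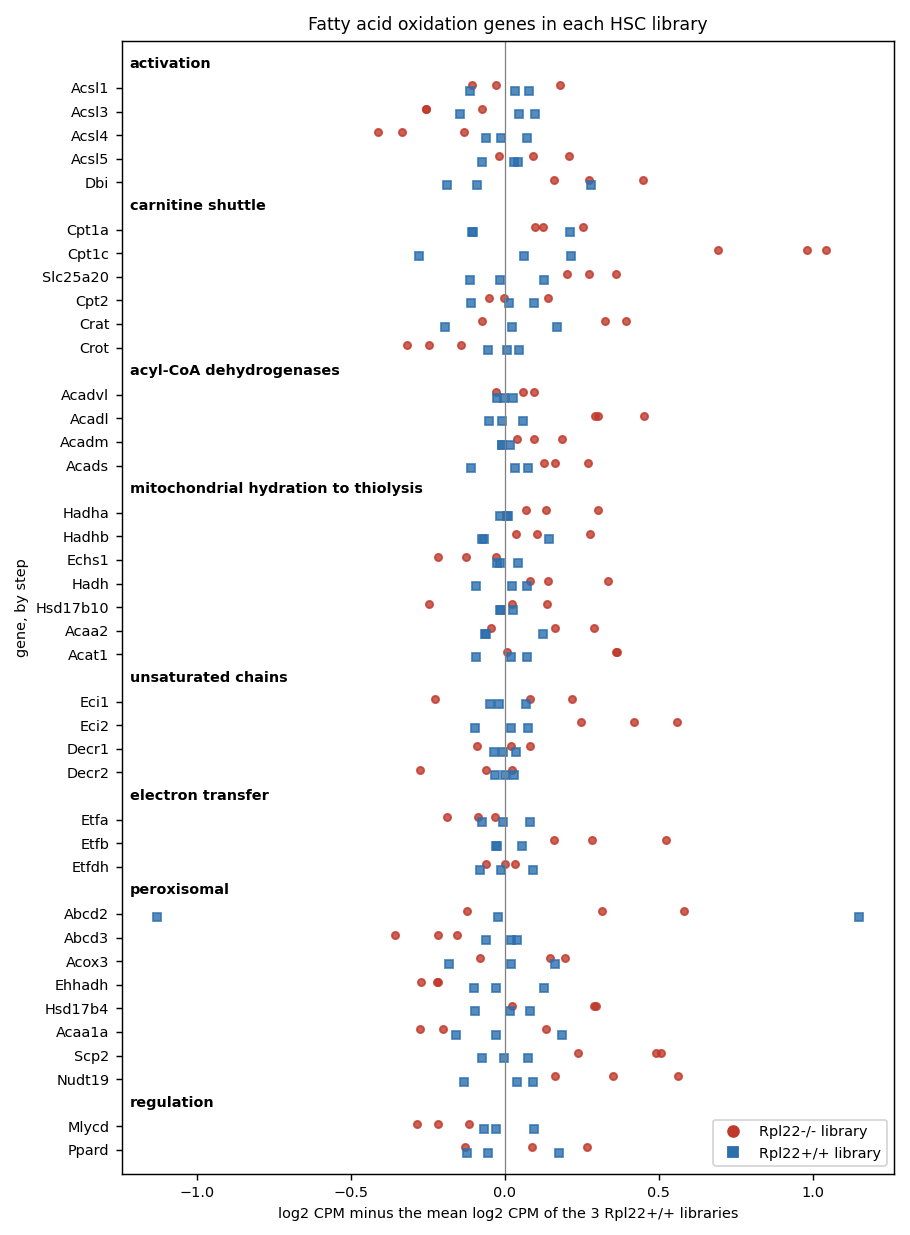
Each point is the log2 CPM of a gene in a library minus the mean log2 CPM of the 3 *Rpl22*+/+ libraries, with the genes tested ordered by step, circles for *Rpl22*-/- and squares for *Rpl22*+/+ libraries. Among the circles *Cpt1c* lies furthest to the right in every *Rpl22*-/- library, *Scp2*, *Eci2* and *Acadl* are also clear of their squares, and the squares of *Abcd2*, which had 8 to 30 reads a library, are the most spread.

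By organelle, the mitochondrial genes had a median log2 change of 0.14, with 15 of 19 above 0, or 0.093 and 11 of 19 when scaled by library size alone. The median of all genes tested was −0.0068, with 48.7% above 0, and it was −0.051 when scaled by library size alone. When single libraries were left out the mitochondrial median lay between 0.067, without *Rpl22*-/- replicate 2, and 0.15. The median of the 10 peroxisomal genes was −0.024, with 5 above and 5 below 0 (0.00055 by limma-voom, and between −0.14 and 0.073 when single libraries were left out), although *Scp2* among them had the smallest p of all. These medians are descriptions, and the difference between organelles was not tested. The summed level of all 40 genes was 2844, 3034 and 2879 CPM in *Rpl22*-/- replicates 1, 2 and 3, and 2712, 2675 and 2660 CPM in *Rpl22*+/+ replicates 1, 2 and 3. Every *Rpl22*-/- sum thus exceeded every *Rpl22*+/+ sum. The 4 genes called made up 362, 412 and 411 CPM of it in *Rpl22*-/- and 296, 299 and 302 CPM in *Rpl22*+/+ libraries. The others still summed to 2482, 2622 and 2468 CPM in *Rpl22*-/- and 2416, 2376 and 2359 CPM in *Rpl22*+/+ libraries.

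**Figure D2:**
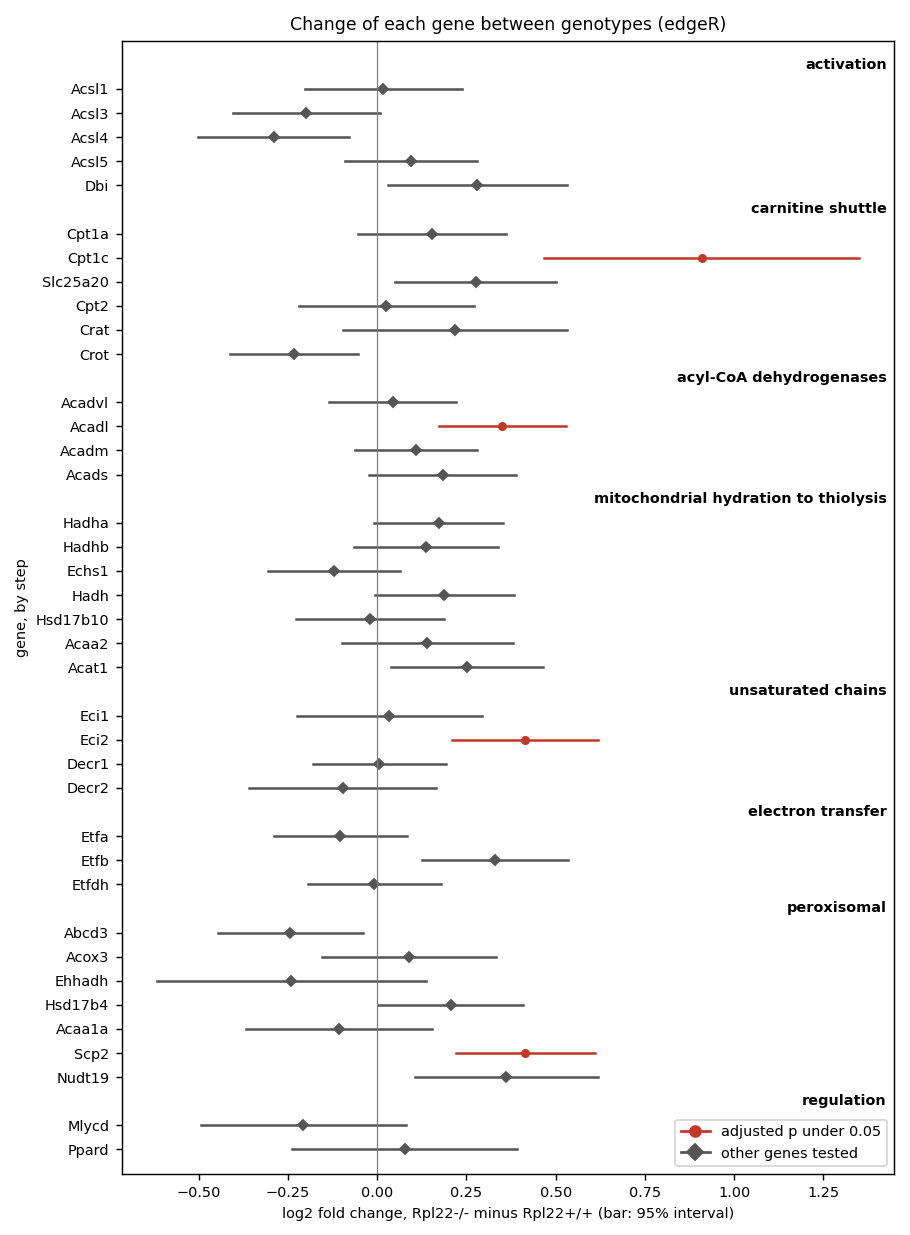
Log2 fold change of each gene between genotypes with its 95% interval from edgeR, by step, for 38 genes (*Abcd2*, whose interval runs from −0.96 to 1.06, and *Ppara* are not drawn). The 4 genes with an adjusted p below 0.05 are drawn with circles, and each has an interval that lies wholly above 0.

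In the activation step, none of the 5 genes passed the test, and *Acsl4* and *Dbi* had an unadjusted p below 0.05. *Acsl4*, the synthetase that prefers arachidonic acid, had the smallest p of the step and pointed downward. It measured 51.6, 44.8 and 42.5 CPM in *Rpl22*-/- replicates 1, 2 and 3, and 59.4, 56.0 and 54.2 CPM in *Rpl22*+/+ replicates 1, 2 and 3. The lowest *Rpl22*+/+ library was above the highest *Rpl22*-/- library. The means were 46.3 ± 4.75 and 56.5 ± 2.62 CPM (SD, n = 3), and the log2 change was −0.29 (SE 0.0996, adjusted p = 0.0964 by edgeR). *Acsl3*, the synthetase of the endoplasmic reticulum and lipid droplets, had a log2 change of −0.20, *Acsl1* of 0.017 and *Acsl5* of 0.095. *Dbi*, which encodes the acyl-CoA binding protein that carries the esters through the cytosol, stood at 70.7 ± 7.22 and 58.0 ± 10.3 CPM (SD, n = 3; log2 change 0.28, adjusted p = 0.172), and *Rpl22*+/+ replicate 1, at 69.7 CPM, was higher than *Rpl22*-/- replicates 1 and 3.

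Per length of transcript, *Acsl5* dominated the synthetase family in both genotypes. It gave 62.6% ± 2.34 of the summed CPM per kb of the 4 Acsl genes in *Rpl22*-/- and 58.7% ± 0.833 in *Rpl22*+/+ libraries (SD, n = 3). *Acsl4* gave 9.35% ± 1.42 and 11.4% ± 0.334, *Acsl3* 14.7% ± 1.06 and 16.8% ± 0.602, and *Acsl1* 13.3% ± 1.14 and 13.1% ± 0.238. The ratio of *Acsl5* to *Acsl4* per length was 5.57, 7.52 and 7.32 in *Rpl22*-/- libraries and 5.01, 5.37 and 5.11 in *Rpl22*+/+ libraries. These ranges did not overlap, and the exact two-sided permutation p was 0.1, the smallest that 3 against 3 can give. It was 1 of 5 ratios between genes compared, all chosen after their values were seen, and its Benjamini-Hochberg adjusted p over the 5 was 0.167.

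In the carnitine step, *Cpt1c* was higher in *Rpl22*-/- HSCs and the other 5 genes did not pass. *Cpt1c* is the member of the carnitine palmitoyltransferase 1 family known from neurons, where it sits on the endoplasmic reticulum and has little transferase activity of its own. It lies on chromosome 7 of GRCm38, from 44959372 to 44974851 on the minus strand (ENSMUSG00000007783). Its values were 9.98, 7.82 and 9.57 CPM in *Rpl22*-/- libraries and 3.99, 5.06 and 5.62 CPM in *Rpl22*+/+ libraries, from 94 to 128 and 52 to 63 reads. Every *Rpl22*-/- library was above every *Rpl22*+/+ library. The means were 9.12 ± 1.14 and 4.89 ± 0.825 CPM (SD, n = 3), a log2 change of 0.91 (SE 0.208, adjusted p = 0.0208 by edgeR), or 1.88-fold. It was the largest log2 change among the 39 genes tested, in one of the least expressed of them. Of the exon bases of *Cpt1c*, 6.53% are shared with an antisense transcript, *6530437J22Rik*, that was not analysed here. The strand setting of the counting is not given in the sources used here.

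*Cpt1a*, the liver-type enzyme of the outer mitochondrial membrane, was far above *Cpt1c* in both genotypes. Per length, its level was 14.5, 16.9 and 13.5 times that of *Cpt1c* in *Rpl22*-/- libraries and 28.2, 22.2 and 25.0 times in *Rpl22*+/+ libraries (exact two-sided permutation p = 0.1, adjusted over the 5 ratios 0.167). *Cpt1a* itself measured 209 ± 12.3 and 188 ± 24.8 CPM (SD, n = 3; log2 change 0.15, 95% interval −0.055 to 0.36, adjusted p = 0.385 by edgeR). *Slc25a20*, the translocase that exchanges acylcarnitine for carnitine across the inner membrane, stood at 42.6 ± 2.35 and 35.1 ± 2.98 CPM (SD, n = 3) with all *Rpl22*-/- libraries above all *Rpl22*+/+ libraries (log2 change 0.28, adjusted p = 0.136). A stretch of 366 bases of its transcript matches transcripts of other annotated genes at up to 98.9%, most of which were not analysed here. *Cpt2*, the inner membrane enzyme that returns the chain to CoA, was at 30.0 ± 2.11 and 29.4 ± 2.07 CPM (SD, n = 3; log2 change 0.025, 95% interval −0.22 to 0.27). *Crat*, the acetyltransferase found in both organelles, had a log2 change of 0.22 (adjusted p = 0.411). *Crot*, which makes carnitine esters of the medium chains that leave peroxisomes, was below in all *Rpl22*-/- libraries, at 87.0 ± 5.39 against 102 ± 3.50 CPM (SD, n = 3; log2 change −0.23, adjusted p = 0.110).

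Among the acyl-CoA dehydrogenases, which divide the chains by length, *Acadl* rose and all 4 genes had log2 changes above 0, though that of *Acadvl* was −0.00028 with library size alone and −0.045 after trends on transcript length and GC were taken out. *Acadl*, the long-chain enzyme (ENSMUSG00000026003, chromosome 1, 66830839 to 66863277, minus strand), measured 126, 140 and 126 CPM in *Rpl22*-/- replicates 1, 2 and 3, and 98.9, 102 and 107 CPM in *Rpl22*+/+ replicates 1, 2 and 3. The genotypes did not overlap. From means of 131 ± 8.14 and 103 ± 4.04 CPM (SD, n = 3), the log2 change was 0.35 (SE 0.0836, adjusted p = 0.0248 by edgeR). The short-chain *Acads* (0.18, adjusted p = 0.281) and the medium-chain *Acadm* (0.11, adjusted p = 0.460) also had all *Rpl22*-/- libraries above all *Rpl22*+/+ libraries, though neither passed. *Acadvl*, for very long chains, stood at 71.8 ± 3.15 and 69.6 ± 1.27 CPM (SD, n = 3; 0.043, 95% interval −0.13 to 0.22). It shares 42.9% of its exon bases with *Dvl2* on the opposite strand. As the strand setting of the counting is not given in the sources used here, how reads on the shared bases were counted is not known. Per length, *Acadm* was the most abundant dehydrogenase in *Rpl22*+/+ HSCs, at 60.9 ± 0.614 CPM per kb, followed by *Acadl* at 53.5 ± 2.11, and in *Rpl22*-/- HSCs they stood at 65.6 ± 3.36 and 68.2 ± 4.25 (SD, n = 3), within their spread of each other.

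**Figure D3:**
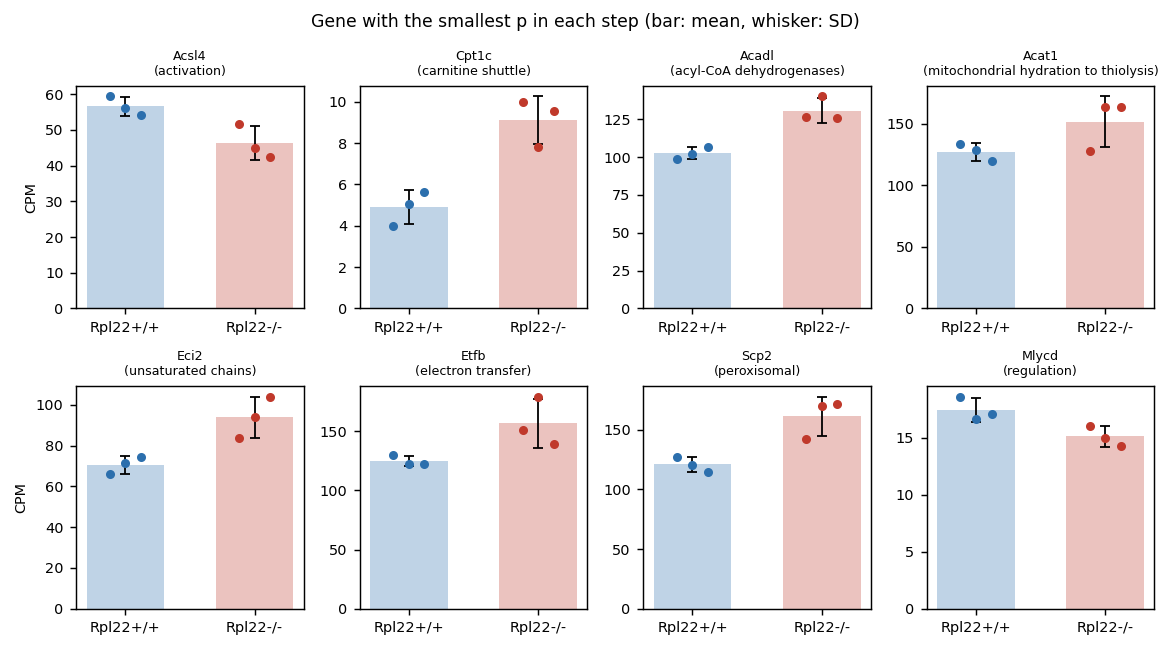
CPM of the gene with the smallest p in each step, with a point for each library, a bar for the mean and a whisker for the SD of 3 libraries. *Cpt1c*, *Acadl*, *Eci2* and *Scp2* passed the adjusted threshold, *Acsl4*, *Acat1*, *Etfb* and *Mlycd* did not, and the *Acat1* point of *Rpl22*-/- replicate 1 (128 CPM) falls among the *Rpl22*+/+ points.

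The 7 mitochondrial genes for hydration through thiolysis had log2 changes from −0.12 to 0.25, and none passed, with 1 at an unadjusted p below 0.05. *Acat1*, the thiolase that acts on acetoacetyl-CoA in the last round and in ketone metabolism, had the smallest p. Its levels were 128, 164 and 163 CPM in *Rpl22*-/- libraries and 134, 129 and 119 CPM in *Rpl22*+/+ libraries. Replicate 1 of the *Rpl22*-/- libraries lay within the *Rpl22*+/+ range, and replicates 2 and 3 lay above it. The means were 152 ± 20.6 and 127 ± 7.33 CPM (SD, n = 3; log2 change 0.25, SE 0.10, adjusted p = 0.151 by edgeR). *Hadha* and *Hadhb* encode the subunits of the trifunctional protein, which carries out these reactions on long chains. They had log2 changes of 0.17 and 0.14 (adjusted p = 0.250 and 0.423), and their ratio per length was 0.979 ± 0.0457 in *Rpl22*-/- and 0.960 ± 0.0759 in *Rpl22*+/+ libraries (SD, n = 3; exact two-sided permutation p = 0.8, adjusted over the 5 ratios 0.8). For *Hadha* all *Rpl22*-/- libraries were above all *Rpl22*+/+ libraries, while for *Hadhb* the genotypes overlapped.

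For shorter chains, *Hadh*, the hydroxyacyl-CoA dehydrogenase, stood at 97.0 ± 9.13 and 85.2 ± 5.01 CPM (SD, n = 3; log2 change 0.19, adjusted p = 0.242), with all *Rpl22*-/- libraries above all *Rpl22*+/+ libraries. *Echs1*, the hydratase that comes before it, had a log2 change of −0.12 (adjusted p = 0.441), and all its *Rpl22*-/- libraries were below all its *Rpl22*+/+ libraries. *Acaa2*, the thiolase, had a log2 change of 0.14 (adjusted p = 0.502). *Hsd17b10*, whose product is both a dehydrogenase of branched substrates and a subunit of mitochondrial RNase P, was at 84.7 ± 11.3 and 85.9 ± 1.44 CPM (SD, n = 3; −0.020, 95% interval −0.23 to 0.19).

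Of the 4 genes for unsaturated chains, *Eci2* rose and the other 3 had intervals that spanned 0. Enoyl-CoA isomerases shift a double bond so that the chain can go on through the hydratase, and *Eci2* is the one with forms in both peroxisomes and mitochondria. The gene is on chromosome 13 from 34977748 to 35027096 on the minus strand (ENSMUSG00000021417). In *Rpl22*-/- replicates 1, 2 and 3 it measured 83.6, 94.1 and 104 CPM, and in *Rpl22*+/+ replicates 1, 2 and 3 it measured 65.9, 71.4 and 74.3 CPM. No *Rpl22*-/- library fell in the *Rpl22*+/+ range. Means of 93.9 ± 10.1 and 70.5 ± 4.25 CPM (SD, n = 3) gave a log2 change of 0.41 (SE 0.0957, adjusted p = 0.0219 by edgeR). Copies of its sequence at *Gm15280* and *Gm15287* held at most 9 reads in any library. Reads that aligned to several places were left out of the counts, so low counts do not show how far such copies are expressed. A 271-base stretch of *Eci2* matches *Zfp445* at 97.0%, and *Zfp445* had 1069 to 1555 reads. Of the exon bases of *Eci2*, 3.41% are shared with *Gm16984* on the opposite strand.

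*Eci1*, the mitochondrial isomerase, stood at 36.2 ± 5.55 and 35.3 ± 1.51 CPM (SD, n = 3; log2 change 0.034, 95% interval −0.22 to 0.29). The ratio of *Eci2* to *Eci1* per length was 1.33, 1.64 and 2.24 in *Rpl22*-/- libraries and 1.16, 1.33 and 1.42 in *Rpl22*+/+ libraries, with overlap (exact two-sided permutation p = 0.3, adjusted over the 5 ratios 0.375). *Decr1*, the mitochondrial dienoyl-CoA reductase, had a log2 change of 0.0057 (95% interval −0.18 to 0.19), and *Decr2*, the peroxisomal one, of −0.097 (−0.36 to 0.16).

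Electrons from the dehydrogenases pass to a flavoprotein with 2 different subunits, *Etfa* and *Etfb*, and from it through *Etfdh* to ubiquinone. *Etfb* had the smallest p of the step and narrowly missed the threshold. It measured 151, 179 and 139 CPM in *Rpl22*-/- libraries and 129, 122 and 122 CPM in *Rpl22*+/+ libraries, without overlap. The log2 change, from 156 ± 20.5 against 124 ± 4.23 CPM (SD, n = 3), was 0.33 (SE 0.0959, adjusted p = 0.0568 by edgeR), and DESeq2's Wald test gave an adjusted p of 0.0293. Once the trends on length and GC content were taken out of each library, it was 0.16 (adjusted p = 0.331).

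For the other genes of the step the intervals spanned 0. *Etfa*, the partner subunit, was at 69.2 ± 3.73 and 74.2 ± 4.0 CPM (SD, n = 3; log2 change −0.10, 95% interval −0.29 to 0.082), and *Etfdh* at 62.5 ± 2.09 and 63.0 ± 3.77 CPM (SD, n = 3; −0.0082, −0.19 to 0.18). The ratio of *Etfb* to *Etfa* per length was 3.38, 3.85 and 3.33 in *Rpl22*-/- and 2.73, 2.42 and 2.70 in *Rpl22*+/+ libraries. Every *Rpl22*-/- ratio was above every *Rpl22*+/+ ratio (exact two-sided permutation p = 0.1, the smallest that 3 against 3 allow, adjusted over the 5 ratios 0.167). Of the exon bases of *Etfb*, 53.0% are shared with *Gm45233* on the same strand, which was not analysed here.

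The 8 peroxisomal genes held the smallest p of the pathway, in *Scp2*, and also genes that pointed down. *Scp2* makes, from separate starts, both a thiolase for branched chains and bile acid side chains and the smaller sterol carrier protein, and gene counts do not tell these apart. It lies on chromosome 4 from 108043839 to 108144998 on the minus strand (ENSMUSG00000028603). The *Rpl22*-/- libraries measured 142, 170 and 172 CPM and the *Rpl22*+/+ libraries 127, 121 and 115 CPM. The genotypes did not overlap, and *Rpl22*-/- replicate 1 was the closest to the *Rpl22*+/+ range. From 161 ± 16.4 and 121 ± 6.25 CPM (SD, n = 3) the log2 change was 0.42 (SE 0.0918, adjusted p = 0.0187 by edgeR). A processed copy, *Scp2-ps2*, that matches 1371 bases at 99.6% had at most 3 reads in any library, with reads that aligned to several places left out.

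*Nudt19*, a hydrolase that breaks down CoA in peroxisomes, was at 41.7 ± 5.78 and 32.3 ± 2.58 CPM (SD, n = 3) and did not overlap between genotypes (log2 change 0.36, adjusted p = 0.0864). It shares 35.0% of its exon bases with an antisense transcript that was not analysed here. *Hsd17b4*, which catalyzes the middle reactions of the D-hydroxy route, had a log2 change of 0.21 (adjusted p = 0.217), while *Ehhadh*, its counterpart of the L-hydroxy route, had one of −0.24 (adjusted p = 0.457) from 7.48 ± 0.159 and 8.83 ± 0.726 CPM (SD, n = 3). *Abcd3*, an ABC transporter that brings branched and dicarboxylic acyl-CoA into the organelle, was at 45.0 ± 3.19 against 53.3 ± 1.92 CPM (SD, n = 3), with all *Rpl22*-/- libraries below all *Rpl22*+/+ libraries (−0.24, adjusted p = 0.143). *Abcd2*, an ABC transporter for very long chains, had 8 to 30 reads a library, and its 95% interval of −0.96 to 1.06 includes differences of either sign within those bounds. *Acox3*, an oxidase of branched chains, had a log2 change of 0.090 (adjusted p = 0.697) and *Acaa1a*, the thiolase, one of −0.11 (adjusted p = 0.658). *Acaa1b*, which matches 783 bases of *Acaa1a* at 98.7%, had at most 3 reads in any library, again with reads that aligned to several places left out.

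Neither regulator with enough reads passed the test. *Mlycd*, whose product removes the malonyl-CoA that blocks entry of long chains, had the smaller p. Its levels were 16.1, 15.0 and 14.3 CPM in *Rpl22*-/- libraries and 18.6, 16.6 and 17.1 CPM in *Rpl22*+/+ libraries, so that each *Rpl22*-/- value was below each *Rpl22*+/+ value. The means were 15.1 ± 0.894 and 17.4 ± 1.03 CPM (SD, n = 3; log2 change −0.21, SE 0.135, adjusted p = 0.394 by edgeR). *Ppard*, which encodes PPAR delta, measured 19.9, 17.6 and 15.1 CPM in *Rpl22*-/- libraries and 18.7, 15.2 and 15.9 CPM in *Rpl22*+/+ libraries. These ranges overlapped, and the log2 change of 0.076 had a 95% interval of −0.24 to 0.39 (adjusted p = 0.811). *Ppara*, which encodes PPAR alpha, had 0, 0 and 1 reads in each genotype, under the 3 counts (0.228 to 0.312 CPM, counting error only) that a count of 0 allows, so it was not detectable at this depth.

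**Figure D4:**
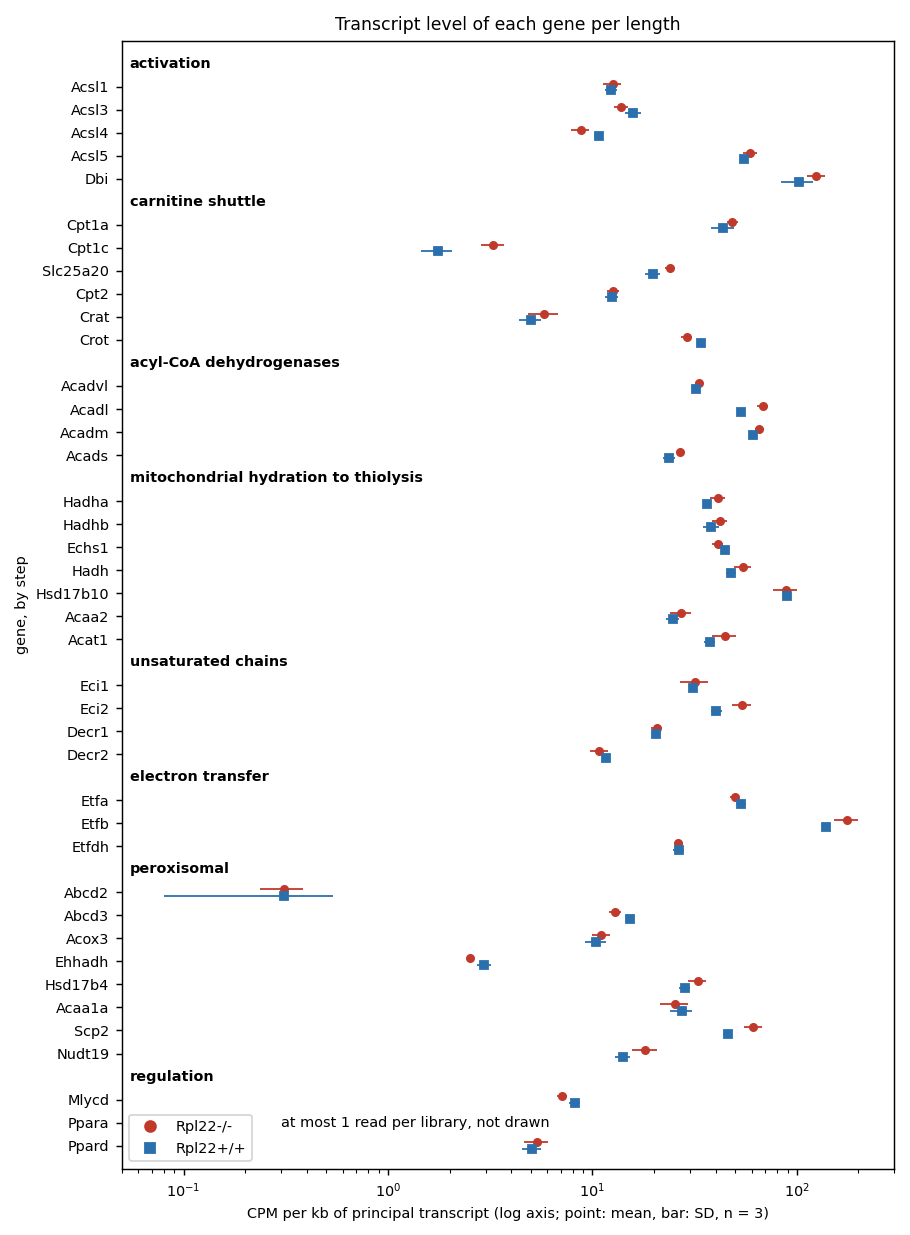
Level of each gene in CPM per kb of its principal transcript on a log axis, with circles for *Rpl22*-/- and squares for *Rpl22*+/+ means and bars for the SD of 3 libraries. *Etfb* and *Dbi* are the highest in both genotypes, *Abcd2* is the lowest of the genes drawn, and *Cpt1c* shows the widest gap between genotypes.

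Expressed per length, the pathway spanned a wide range in *Rpl22*+/+ HSCs. *Etfb* was highest at 139 ± 4.74 CPM per kb (SD, n = 3), followed by *Dbi* at 102 ± 18.1 and *Hsd17b10* at 89.3 ± 1.5. *Dbi* and *Hsd17b10* did not differ beyond the spread of *Dbi*. Next came *Acadm*, *Acsl5*, *Acadl* and *Etfa*, from 60.9 to 53.3 CPM per kb, of which *Acsl5*, *Acadl* and *Etfa* lay within 1 SD of each other. At the low end were *Crat* at 4.98 ± 0.625, *Ehhadh* at 2.96 ± 0.243, *Cpt1c* at 1.75 ± 0.295 and *Abcd2* at 0.310 ± 0.230, and *Ppara* lay under the detection limit. The levels of *Ppard* (5.06 ± 0.562) and *Crat* were within their spread of each other.

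The spread among libraries was wider in *Rpl22*-/- HSCs. The SD of log2 CPM was larger in *Rpl22*-/- than in *Rpl22*+/+ libraries for 27 of the 39 genes, with a median SD of 0.133 against 0.0858. Over all genes tested, the chi-square per degree of freedom between the counts of 2 libraries ran from 9.41 to 13.7 in *Rpl22*-/- pairs. In *Rpl22*+/+ pairs it ran from 4.05 to 5.95, so the wider spread was not particular to these genes. These values are descriptions, as the genes share the same 6 libraries. The calls depended on single libraries, as did those among all genes tested. Of the 4 calls, 0 were left without *Rpl22*-/- replicate 3, without *Rpl22*+/+ replicate 1 or without *Rpl22*+/+ replicate 2, 1 (*Cpt1c*) without *Rpl22*+/+ replicate 3, and 3 (*Scp2*, *Cpt1c* and *Eci2*) without *Rpl22*-/- replicate 2, the library with the most neutrophil transcripts. With every library, 5.57% of all genes tested were called. That share was 0.892% without *Rpl22*-/- replicate 3, 1.44% without *Rpl22*+/+ replicate 1 and 1.82% without *Rpl22*+/+ replicate 2. It was 1.69% without *Rpl22*+/+ replicate 3 and 2.59% without *Rpl22*-/- replicate 2. Without *Rpl22*-/- replicate 1 there were 9 calls, with *Acat1*, *Etfb* and *Hsd17b4* added as higher and *Acsl4* and *Crot* as lower. These 9 were 23.1% of the 39 genes, and in the same fit 12.1% of all genes tested were called. Over the same omissions the number of all genes called ran from 127 to 1720. All 4 genes stayed higher under each of the 15 other ways of processing, *Scp2* by 0.37 to 0.50 on the log2 scale, *Cpt1c* by 0.78 to 1.01, *Eci2* by 0.34 to 0.50 and *Acadl* by 0.30 to 0.38. The adjusted p ran from 0.000635 to 0.0945 for *Scp2*, 0.00138 to 0.103 for *Cpt1c*, 0.00110 to 0.122 for *Eci2* and 0.00601 to 0.134 for *Acadl*.

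**Figure D5:**
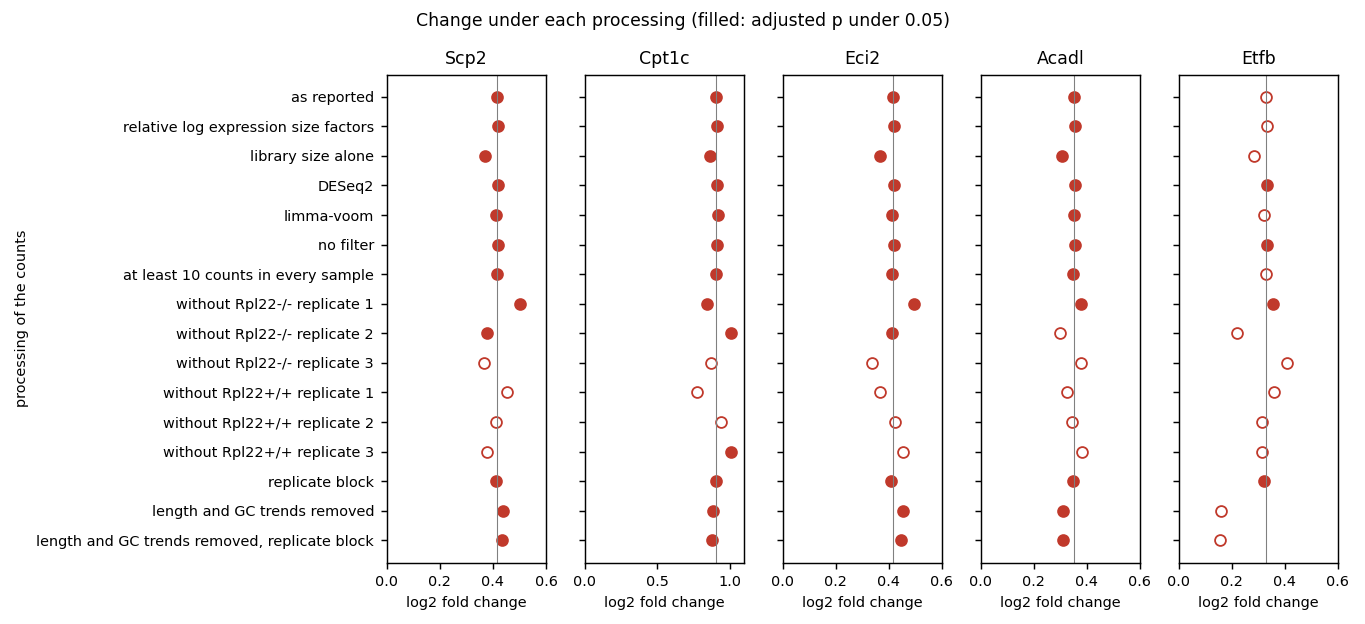
Log2 fold change of the 4 genes called and of *Etfb* under each processing of the counts, with filled points where the adjusted p was below 0.05 and a grey line at the reported value. The points stay on the positive side throughout, and open points gather where single libraries were left out, while *Etfb* is open as reported and drops to 0.16 when trends on length and GC are removed.

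The wider lipid program around these genes was examined through 118 other genes in 9 groups, covering uptake and binding, other activating enzymes, other carnitine genes, further mitochondrial and peroxisomal enzymes, peroxisome assembly, regulators, known PPAR targets and lipolysis. Of these, 91 were tested, with 42 above and 49 below 0 and a median log2 change of −0.026. By edgeR 0 passed the adjusted threshold, with 11 at an unadjusted p below 0.05 (6 higher and 5 lower), where 3.28% and 2.29% of all genes were called higher and lower and 22.3% had such an unadjusted p. The smallest p of the 91 by edgeR was that of *Slc27a6*, which was lower in *Rpl22*-/- HSCs (log2 change −0.37, adjusted p = 0.0685). *Lpin1* (−0.43, adjusted p = 0.0797) and *Sirt1* (−0.30, adjusted p = 0.0802) came next and were also lower. DESeq2 called 1 gene, *Ucp2*, a mitochondrial carrier and PPAR target (log2 change 0.25, adjusted p = 0.0406), and limma-voom called 0. Of all genes tested, DESeq2 called 7.54% and limma-voom 5.30%. Among the 7 PPAR targets tested, 2 were above and 5 below 0, with a median of −0.026 whose sign changed when single libraries were left out. Only the 2 above 0, *Ucp2* and *Angptl4*, had an unadjusted p below 0.05 by edgeR. Their log2 changes were 0.24 and 0.46 (adjusted p = 0.0867 and 0.183 by edgeR), and the 5 below 0 lay between −0.14 and −0.0037. Peroxisome assembly had the most one-sided count, 12 of 15 peroxin genes below 0, with a median of −0.072 and 6 whose *Rpl22*-/- libraries all lay below the *Rpl22*+/+ libraries, and 0 called. Among the 15, only *Pex10* had an unadjusted p below 0.05, and it pointed up (log2 change 0.33, adjusted p = 0.217 by edgeR). All its *Rpl22*-/- libraries lay above all its *Rpl22*+/+ libraries. Among all genes tested, 7178 of 14004 lay below 0, and in 13.6% every *Rpl22*-/- library was below every *Rpl22*+/+ library. The 18 further mitochondrial enzymes tested were split 10 to 8, with a median of 0.0096.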

How the data were processed

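Polyadenylated RNA of sorted HSCs from 3 *Rpl22*-/- and 3 *Rpl22*+/+ samples was sequenced. The authors aligned the reads to mm10 with TopHat2 2.1.1 and deposited whole-number counts of reads per gene from HTSeq, without normalization. The annotation and the strand setting are not given in the sources used here. HTSeq's 5 rows of unassigned reads, 58.6% to 60.9% of each library, were left out, and 0 per-sample columns were unused.

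In edgeR 4.0.16 (R 4.3.3), filterByExpr (minimum count 10) kept 14004 genes, TMM scaled the libraries, and genotypes were compared by the quasi-likelihood test, p-values being adjusted across all 14004 genes (Benjamini-Hochberg). The SE of a log2 change is its size divided by the root of F. CPM per kb divides CPM by the length of the principal GENCODE transcript (vM21, GRCm38), the longest where there are several. DESeq2 1.42.0 and limma 3.58.1 (voom) were alternatives, beside other scalings and filters, omission of each library, a replicate block, and removal of trends on length and GC content (lowess, span 0.3). Copies of at least 200 bases and 95% identity were found with BLAST 2.17.0. The fits were first tested on simulated counts for 14004 genes. Pairs of same-numbered libraries did not deviate together, and all replicates differed by more than sampling noise.

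The genes and lists were chosen with earlier results of these data known. Within each step, the genes that passed and the one with the smallest p are given library by library, the others by means or log2 changes. Of the wider lipid genes, those with an adjusted p below 0.05 were to be named. Gene names outside this rule (lineage markers, near copies, overlapping genes, *Slc27a6*, *Lpin1*, *Sirt1*, *Ucp2*, *Angptl4* and *Pex10*) were chosen after their values were seen.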

Additional observations from a re-analysis of the deposited data

How the results depend on the processing

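When single libraries were left out, genes of the pathway called higher numbered 0 to 7 against 4, those called lower 0 to 2 against 0, all genes called 127 to 1720 against 780, and the pathway's median log2 change lay between 0.062 and 0.13 against 0.090. Other lipid genes called higher numbered 0 to 1 and called lower 0 to 6, the highest numbers without *Rpl22*-/- replicate 1. With no filter, 1422 of 20635 genes (6.89%) were called. Of the 40 pathway genes, 6 (15.0%) were then called, with *Etfb* and *Nudt19* added, and *Lpin1* was 1 other lipid gene called lower. With DESeq2, 1056 genes and 1 other lipid gene, *Ucp2*, were called. With length and GC trends removed, 505 genes were called. With library size alone the pathway's median was 0.046 and that of all genes −0.051. Of all calls, 43.4% then pointed up, against 58.8% under TMM. The replicate numbers gave correlations of deviations of −0.10, 0.055 and 0.045 and so do not pair the libraries. The replicate block gave 904 calls, with 5 pathway genes higher (*Etfb* added), 0 lower, and 1 other lipid gene lower, *Lpin1* (log2 change −0.43, adjusted p = 0.0426). With length and GC trends removed and the replicate block there were 551 calls. Of 584 log2 changes of pathway genes under alternatives, 28 in 9 genes changed sign, and none of these genes was called under any setting. With library size alone *Acsl1* stood at −0.026, *Cpt2* at −0.019, *Acadvl* at −0.00028, *Eci1* at −0.0089 and *Decr1* at −0.039. With length and GC trends removed *Cpt2* stood at −0.071, *Acadvl* at −0.045, *Eci1* at −0.078 and *Etfdh* at 0.095, and with the replicate block as well at −0.068, −0.045, −0.082 and 0.095. Over single libraries left out, *Acsl1* ranged from −0.069 to 0.081, *Cpt2* from −0.032 to 0.074, *Hsd17b10* from −0.11 to 0.082, *Eci1* from −0.063 to 0.15, *Decr1* from −0.033 to 0.056, *Etfdh* from −0.047 to 0.037, *Abcd2* from −0.36 to 0.75 and *Ppard* from −0.021 to 0.17. *Rpl22* ran from −3.81 to −3.65 under all alternatives. Fewer samples enter each fit that leaves out a library, and why the omissions differ was not tested. Depth limits *Ppara*, which had too few reads for the test, and *Abcd2*, whose 8 to 30 reads a library left a wide interval.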
